A study of Mus musculus with 12 samples.

Results

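Trp53, which encodes the tumour suppressor p53, had the highest mean level of 10 p53 pathway transcripts in mouse cumulus cells, at 28 to 118 FPKM. None of the 10 passed an adjusted p of 0.05 in limma in any comparison of genotype or age over all libraries. The spread of the target genes was wide. Cdkn1a, the cell cycle inhibitor that p53 induces, stood at 70.4 and 91.2 FPKM in libraries 1 and 2 of the young wild-type group and at 0.666 to 17.2 in the other 10 libraries. Mdm4 was higher and Gadd45a lower in every library of the older mice than in any library of the younger mice. Such a separation, in either direction, was shown by 1.75% of all genes tested, in a comparison added after the values had been seen. The 10 genes were the rows of the expression table named Trp53, Mdm2, Mdm4, Cdkn1a, Ccng1, Sesn1, Sesn2, Gadd45a, Ei24 and Phlda3, out of 23997 rows. All 10 were among the 11196 genes tested, which reached 1 FPKM in at least 3 libraries. FPKM counts fragments relative to transcript length and library size, so levels can be set side by side between genes.

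Cumulus cells are the granulosa-lineage cells around the oocyte. They came from C57BL/6J females, either ClpP knockout (ClpP-/-, KO) or wild type (WT), aged 3 or 6 months, with 3 libraries in each of the 4 groups. ClpP is the proteolytic subunit of a protease of the mitochondrial matrix. All mice, WT and KO, had received pregnant mare serum gonadotropin (5 IU), a hormone that makes follicles grow. The cells were taken after 44 h according to the treatment protocol and after 48 h according to the series design, and a library was made from 100 cells of 1 mouse. The knockout allele is not described further, and the series title names reproductive aging as its subject.

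The p53 protein is a transcription factor that is held at a low level by the ubiquitin ligase Mdm2 and its relative Mdm4, and that accumulates after DNA damage and other stress. Its activity is set mostly by protein stability and modification, which RNA does not show. Its targets stop the cell cycle, repair DNA, restrain growth signalling or promote cell death, and Mdm2 is itself a target, which closes a feedback loop. In the ovary p53 and its family are best known for their part in the removal of damaged germ cells, and granulosa cells of follicles under atresia can also die through apoptosis.

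Promoter sequences were examined first, because binding of p53 to its response element makes a gene a direct target. A response element is a pair of adjoining half-sites. RefSeq promoters (GRCm38.p6) of 300 bases, from 250 before to 50 after a start site, covered all 10 genes in 13 windows. A full p53 consensus site with no spacer and at most 1 mismatch, a search that covers both strands because the consensus is its own reverse complement, lay in 29 of 32851 windows of all genes (0.0883%). It lay in 2 of the 13 windows here, those of Cdkn1a and Ccng1. With up to 2 mismatches the share was 0.798% of all windows and the same 2 windows here. The 250 bases before the start are shown for these 2 genes and for Mdm2 and Gadd45a, whose levels were highest in the same libraries as Cdkn1a. Capitals mark a p53 site and, on either strand, the Sp1-type box GGGCGG, the box CCAAT and the box TATAA. Each is written 5′ to 3′ along the strand of its gene.
Cdkn1a, upstream start, chr17:29090729-29090978, plus strand: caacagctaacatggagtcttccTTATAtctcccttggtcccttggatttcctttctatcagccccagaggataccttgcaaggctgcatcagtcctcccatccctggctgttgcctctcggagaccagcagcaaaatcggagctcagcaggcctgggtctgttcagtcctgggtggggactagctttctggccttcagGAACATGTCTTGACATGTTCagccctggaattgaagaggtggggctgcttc
Cdkn1a, downstream start, chr17:29093519-29093768, plus strand: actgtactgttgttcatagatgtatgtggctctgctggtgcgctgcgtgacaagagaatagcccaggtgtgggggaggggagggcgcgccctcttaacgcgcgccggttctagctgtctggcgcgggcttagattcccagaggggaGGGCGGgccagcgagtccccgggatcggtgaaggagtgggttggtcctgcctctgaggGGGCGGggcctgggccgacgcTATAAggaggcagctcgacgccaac
Ccng1, chr11:40755287-40755536, minus strand: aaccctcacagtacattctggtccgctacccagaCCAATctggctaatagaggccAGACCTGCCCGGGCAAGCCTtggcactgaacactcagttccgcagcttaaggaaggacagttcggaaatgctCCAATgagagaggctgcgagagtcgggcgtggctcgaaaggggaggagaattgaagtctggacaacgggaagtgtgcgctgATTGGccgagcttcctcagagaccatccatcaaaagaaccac
Mdm2, chr10:117710759-117711008, minus strand: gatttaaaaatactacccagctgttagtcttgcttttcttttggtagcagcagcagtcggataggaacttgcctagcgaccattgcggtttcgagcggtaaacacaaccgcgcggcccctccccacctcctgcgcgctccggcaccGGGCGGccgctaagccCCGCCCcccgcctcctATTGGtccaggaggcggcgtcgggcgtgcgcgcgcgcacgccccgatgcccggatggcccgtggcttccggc
Gadd45a, chr6:67037408-67037657, minus strand: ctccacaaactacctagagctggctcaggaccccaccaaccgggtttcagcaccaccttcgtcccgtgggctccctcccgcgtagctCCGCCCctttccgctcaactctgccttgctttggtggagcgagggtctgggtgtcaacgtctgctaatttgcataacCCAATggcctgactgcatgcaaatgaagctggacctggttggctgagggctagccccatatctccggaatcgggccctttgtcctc

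The Cdkn1a site, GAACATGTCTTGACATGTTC, is at chr17:29090928-29090947, and its end lies 2822 bases before the downstream start. The Ccng1 site, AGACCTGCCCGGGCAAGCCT, is at chr11:40755462-40755481. GGGCGG lay in 35.7% of all windows and in 8 of the 13, CCAAT in 37.4% and in 7, and TATAA in 24.9% and in 3. A match is a stretch of letters only, and a window with no match says nothing of p53 binding elsewhere: p53 sites of Mdm2 and Gadd45a are known from introns, which were not searched.

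The libraries were checked against their labels before the genes were compared. Clpp (chromosome 17, 56990305 to 56996188, GRCm38) stood at 88.2 to 146 FPKM in the 6 WT libraries and at 0.769 to 6.63 in the 6 KO libraries, and KO levels were 2.69% of WT at 3 months and 2.38% at 6 months. An exact permutation test of 3 against 3 libraries (2-sided) cannot go below p = 0.1, and Clpp reached that value at both ages. The granulosa marker Inha lay between 2419 and 6334 FPKM in all 12 libraries, but other markers of that list varied more. Inhba ran from 11 to 1122 FPKM, and Hsd17b1 was at 170 and 196 in the KO libraries numbered 3 and at 623 to 1256 in the others. All 10 granulosa markers were above 0 in every library, and their summed level ran from 2947 to 8085 FPKM. The KO libraries numbered 3 stood apart in theca and stromal markers, which summed to 7625 FPKM at 3 months and 9944 at 6 months but to between 3.58 and 905 in the remaining 10 libraries, with 0 of 11 markers at 0 in those 2 libraries and up to 4 of 11 elsewhere. Oocyte markers summed to 50.4 and 232 FPKM in the same 2 libraries and to 14.0 or less in the others. Small RNA took 32.0% and 37.5% of their summed FPKM, 25.7% in young WT library 1 and 0.263% to 6.82% in the other 9. Blood and leukocyte markers summed to 764 to 1385 FPKM in the library numbered 3 of all 4 groups and to 39.9 or less in the other 8. Fits were repeated with 3 of these left out, the libraries numbered 3 in young KO, older WT and older KO mice, and, as an alternative added after seeing the data, with all 4 libraries numbered 3 left out. The second also removes young WT library 3, the one in which Cdkn1a, Mdm2 and Gadd45a were low, and leaves 2 libraries a group. In RNA from pooled cells, fewer cells of a type and less RNA per cell cannot be told apart.

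**Figure D1:**
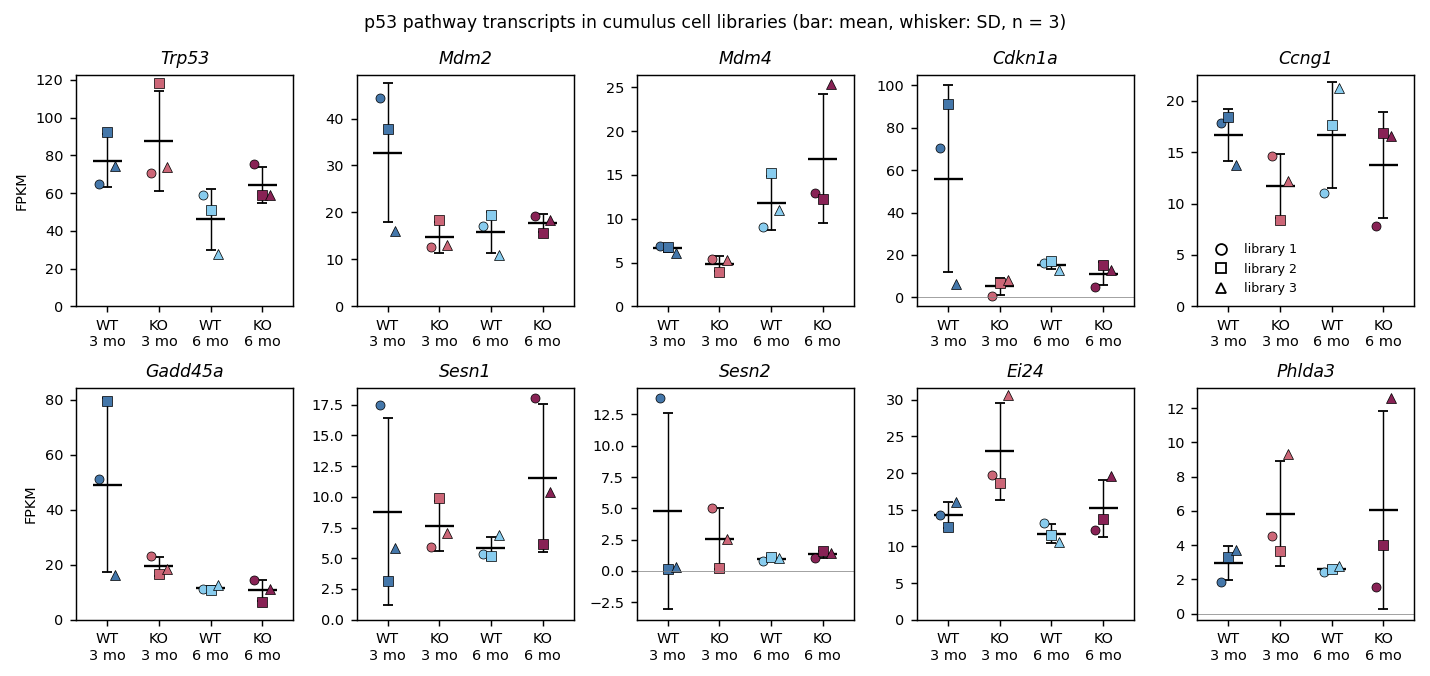
FPKM of the 10 genes (1 panel each) in the 4 groups, with a point for each library (circle 1, square 2, triangle 3), a bar for the mean and a whisker for the SD (n = 3). In young WT, libraries 1 and 2 of Mdm2, Cdkn1a and Gadd45a sit above every other library of the series, and library 3 does not.

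Trp53 (chromosome 11, 69580359 to 69591873, plus strand) was detected in all 12 libraries. Young WT libraries 1, 2 and 3 held 64.8, 92.5 and 74.4 FPKM (mean 77.2 ± 14.1, SD, n = 3), and young KO libraries held 70.9, 118 and 73.7 (87.7 ± 26.6, n = 3). Older WT libraries held 59.1, 51.1 and 28 FPKM (46.1 ± 16.2, n = 3), and older KO libraries held 75.5, 59 and 59 (64.5 ± 9.51, n = 3). All 3 older WT libraries were below all 3 younger WT libraries, while the KO groups overlapped across age and the genotypes overlapped at both ages. On the log2(FPKM + 1) scale of all fits here, the difference between 6 and 3 months in WT was -0.78 (SE 0.32, unadjusted p = 0.0296, adjusted p = 0.664 from limma). It was -0.47 with the 3 libraries left out and -0.49 with the 4. In KO the age difference was -0.41 (SE 0.32, adjusted p = 0.792).

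Mdm2 (chromosome 10, 117688875 to 117710758, minus strand), the ligase that marks p53 for destruction, had its highest values in young WT. Young WT libraries held 44.4, 37.7 and 16.1 FPKM (32.8 ± 14.8, n = 3) against 12.7, 18.5 and 13 in young KO (14.7 ± 3.27, n = 3). The older libraries held 17.2, 19.4 and 10.9 FPKM with ClpP (15.8 ± 4.39, n = 3) and 19.3, 15.6 and 18.3 without it (17.7 ± 1.88, n = 3). WT library 3 lay within the range of the young KO group, so the groups overlapped. The KO minus WT difference at 3 months was -1.01 (SE 0.37, unadjusted p = 0.0195, adjusted p = 0.690 from limma), and at 6 months it was 0.19 (SE 0.37). With all 4 libraries numbered 3 left out these were -1.36 (adjusted p = 0.0733) and -0.067. The difference between these 2 effects, the interaction of genotype and age, was 1.19 (SE 0.53, unadjusted p = 0.0429, adjusted p = 1.0).

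Mdm4 (chromosome 1, 132959484 to 133030561, minus strand) binds p53 and blocks its activity without marking it for destruction. The 6 young libraries held 6.93, 6.77 and 6.15 FPKM with ClpP (6.62 ± 0.42, n = 3) and 5.40, 3.94 and 5.32 without it (4.89 ± 0.82, n = 3). The 6 older libraries held 9.11, 15.2 and 11 FPKM with ClpP (11.8 ± 3.10, n = 3) and 12.9, 12.3 and 25.4 without it (16.9 ± 7.39, n = 3). The lowest older library, at 9.11, was above the highest young library, at 6.93. The age difference was 0.72 in WT (SE 0.33, unadjusted p = 0.0474, adjusted p = 0.664) and 1.54 in KO (SE 0.33, unadjusted p = 0.000511, adjusted p = 0.696), and the interaction was 0.82 (SE 0.46, adjusted p = 1.0). Without 6-month KO library 3, where Mdm4 was highest, the age difference in KO was 1.22.

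Cdkn1a (chromosome 17, 29090976 to 29100727, plus strand) encodes p21, which stops the cell cycle by inhibiting cyclin-dependent kinases. In young WT the 3 libraries held 70.4, 91.2 and 6.34 FPKM (56 ± 44.2, n = 3), and in young KO they held 0.666, 6.67 and 7.97 (5.10 ± 3.90, n = 3). In older WT they held 16, 17.2 and 12.9 FPKM (15.4 ± 2.21, n = 3), and in older KO 4.97, 15.4 and 12.7 (11 ± 5.42, n = 3). The young WT group held both high libraries and 1 within the KO range, and the SD was 44.2 against a mean of 56. At 3 months KO minus WT was -2.91 (SE 0.88, 95% interval -4.83 to -0.99, unadjusted p = 0.00642, adjusted p = 0.664 from limma). It lay between -4.06 (adjusted p = 0.0595) without WT library 3 and -2.13 without KO library 1. With all 4 libraries numbered 3 left out it was -4.50 (adjusted p = 0.0512), still short of the threshold. At 6 months the difference was -0.56 (SE 0.88), and the interaction was 2.34 (SE 1.25, unadjusted p = 0.0846, adjusted p = 1.0).

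Ccng1 (chromosome 11, 40748552 to 40755311, minus strand), cyclin G1, is a p53 target that feeds back on Mdm2 activity. It had the narrowest span of the 10 genes, 1.33 log2 units between its lowest and highest library. The young WT libraries held 17.8, 18.5 and 13.8 FPKM (16.7 ± 2.56, n = 3) and the young KO libraries 14.6, 8.42 and 12.2 (11.7 ± 3.11, n = 3). Among older mice the levels were 11.1, 17.7 and 21.3 FPKM with ClpP (16.7 ± 5.18, n = 3) and 7.85, 16.9 and 16.5 without it (13.8 ± 5.12, n = 3). All pairs of groups overlapped. The KO minus WT difference was -0.49 at 3 months (SE 0.36, adjusted p = 0.810) and -0.29 at 6 months (SE 0.36, adjusted p = 1.0). Although Ccng1 and Cdkn1a both carried a consensus site in their windows, Ccng1 in young WT libraries 1 and 2 stood at 17.8 and 18.5 FPKM, inside the range of the older libraries.

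Gadd45a (chromosome 6, 67035096 to 67037457, minus strand) acts in growth arrest and DNA repair. Levels in young WT were 51.1, 79.5 and 16.2 FPKM (49 ± 31.7, n = 3), against 23.3, 16.7 and 18.4 in young KO (19.5 ± 3.4, n = 3). Levels in older WT were 11.2, 11 and 12.5 FPKM (11.6 ± 0.84, n = 3), against 14.4, 6.51 and 11 in older KO (10.6 ± 3.96, n = 3). Every older library was below every young library, with 14.4 FPKM as the highest older and 16.2 as the lowest young value. The age difference was -1.73 in WT (SE 0.48, unadjusted p = 0.00374, adjusted p = 0.664 from limma) and -0.86 in KO (SE 0.48, unadjusted p = 0.0991, adjusted p = 0.753). Without 3-month WT library 3 the WT difference was -2.37 with an adjusted p of 0.0450, the only fit of all those run in which any of the 10 genes passed. Between young KO and WT the difference was -1.04 (SE 0.48, unadjusted p = 0.0521, adjusted p = 0.738), and it ran from -1.68 without WT library 3 to -0.56 without WT library 2. With all 4 libraries numbered 3 left out, KO minus WT was -1.64 in young mice (adjusted p = 0.102) and the age difference in WT -2.42 (adjusted p = 0.0655). The transcript E230016M11Rik overlaps 337 bases of Gadd45a exons on the opposite strand, stood at 1.05 to 4.58 FPKM, and cannot be told apart from it where reads carry no strand. In the GENCODE annotation, opposite-strand genes without a row in the table used here also overlap 273 exonic bases of Cdkn1a (AC167363.2) and 324 of Ei24 (Gm26787). Trp53 and Mdm4 have processed pseudogenes, Trp53-ps and Mdm4-ps, whose reads could be counted with them.

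Sesn1 (chromosome 10, 41809935 to 41908424, plus strand) and Sesn2 (chromosome 4, 132492032 to 132510501, minus strand) encode sestrins, stress proteins that restrain mTORC1 signalling. Sesn1 in young WT held 17.5, 3.13 and 5.80 FPKM (8.80 ± 7.62, n = 3), and in young KO 5.95, 9.91 and 7.07 (7.64 ± 2.04, n = 3). Among older mice its levels were 5.34, 5.22 and 6.86 FPKM with ClpP (5.81 ± 0.91, n = 3) and 18, 6.15 and 10.4 without it (11.5 ± 6.02, n = 3). The 2 highest values, 18 and 17.5, lay in groups of opposite genotype and age. Sesn2 in young WT held 13.8, 0.149 and 0.356 FPKM (4.76 ± 7.81, n = 3), and in young KO 5.04, 0.210 and 2.52 (2.59 ± 2.42, n = 3). Its levels in older mice were 0.784, 1.14 and 1.04 FPKM with ClpP (0.99 ± 0.19, n = 3) and 1.0, 1.56 and 1.41 without it (1.33 ± 0.29, n = 3). Most of the Sesn2 spread thus lay among the young libraries, and it was the lowest of the 10 genes, with 8 of 12 libraries at 1 FPKM or more. Among older mice KO minus WT was 0.77 for Sesn1 (SE 0.51, adjusted p = 1.0) and 0.22 for Sesn2 (SE 0.84, adjusted p = 1.0).

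Ei24 (chromosome 9, 36779159 to 36797393, minus strand) encodes an endoplasmic reticulum protein linked to cell death and autophagy. Its levels were 14.2, 12.6 and 16 FPKM in young WT (14.3 ± 1.71, n = 3) and 19.7, 18.6 and 30.6 in young KO (23 ± 6.62, n = 3). In older mice they were 13.2, 11.5 and 10.6 FPKM with ClpP (11.7 ± 1.32, n = 3) and 12.3, 13.7 and 19.5 without it (15.2 ± 3.85, n = 3). Every young KO library was above every young WT library, and the older groups overlapped. For young mice KO minus WT was 0.62 (SE 0.28, unadjusted p = 0.0478, adjusted p = 0.730 from limma), and 0.41 without KO library 3. At 6 months it was 0.32 (SE 0.28, adjusted p = 1.0), and 0.14 without KO library 3.

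Phlda3 (chromosome 1, 135766119 to 135769136, plus strand) encodes a small membrane-binding protein that represses Akt signalling. Young WT libraries held 1.85, 3.33 and 3.69 FPKM (2.96 ± 0.98, n = 3), and young KO libraries 4.55, 3.63 and 9.35 (5.85 ± 3.07, n = 3). Older WT libraries lay close together at 2.41, 2.59 and 2.77 FPKM (2.59 ± 0.18, n = 3), while older KO libraries spread over 1.56, 4.0 and 12.6 (6.05 ± 5.78, n = 3). The highest values of Phlda3, 9.35 and 12.6, were in the 2 KO libraries with theca and stromal markers at 7625 and 9944 FPKM in sum, and their part in the result was not tested. The KO minus WT difference was 0.73 at 3 months (SE 0.53, adjusted p = 0.809) and 0.64 at 6 months (SE 0.53, adjusted p = 1.0). Without library 3 of the KO group it was 0.39 at 3 months and -0.0024 at 6 months.

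**Figure D2:**
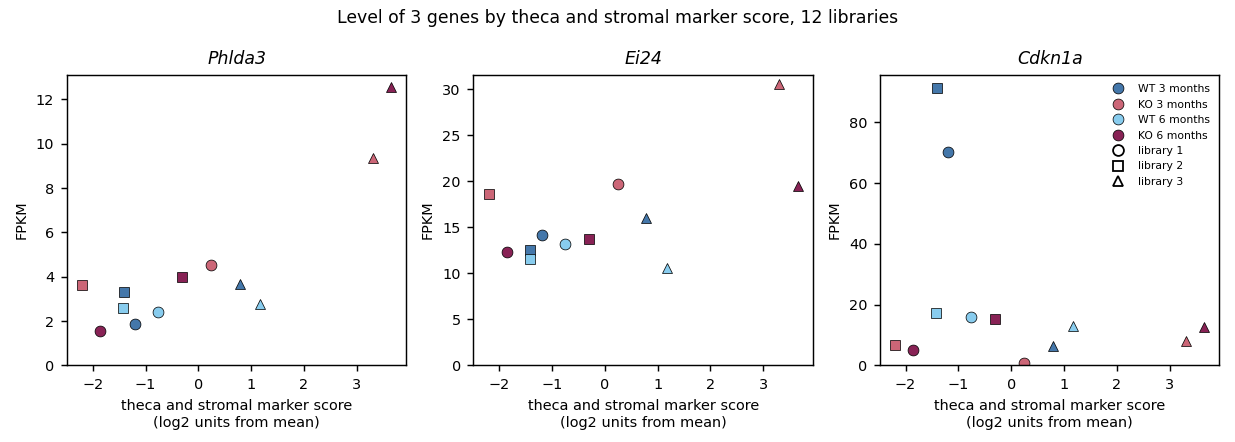
FPKM of Phlda3, Ei24 and Cdkn1a (vertical axes) against the mean centred log2 level of the theca and stromal markers (horizontal axis) in the 12 libraries, coloured by group with the shape giving the library number. The KO libraries numbered 3, at 3.30 and 3.65 on the horizontal axis, are the highest of 12 for Phlda3, while both high Cdkn1a libraries lie at -1.19 and -1.41.

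**Figure D3:**
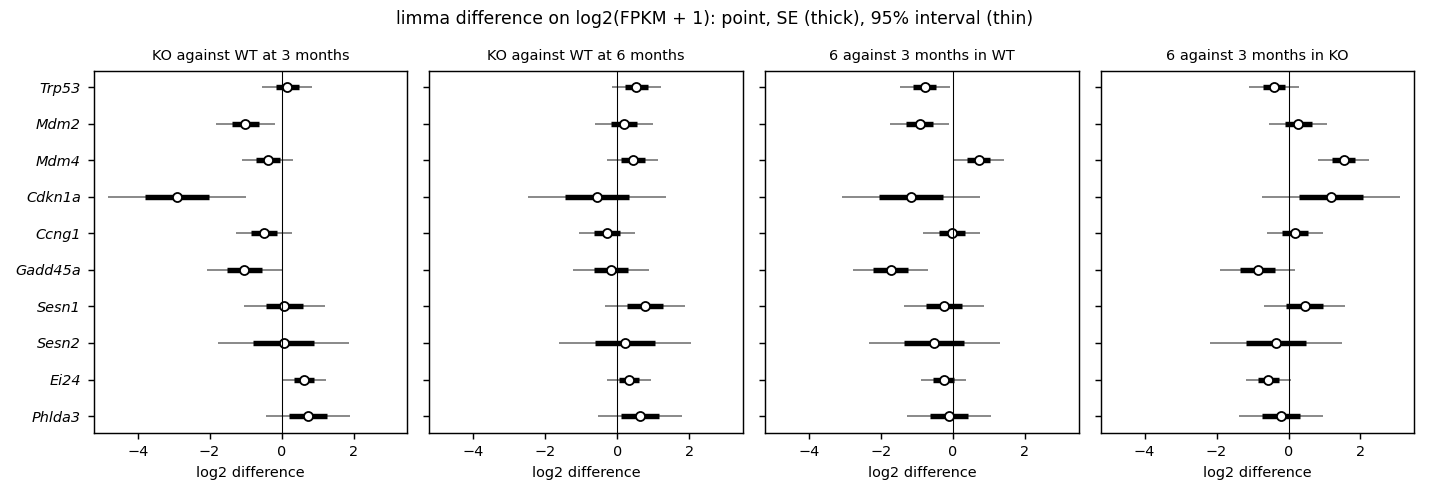
Fitted log2 differences of the 10 genes (rows) in the 4 comparisons between groups (panels), with a point for the estimate, a thick bar for the SE and a thin bar for the 95% interval. Cdkn1a has the widest intervals with Sesn2, and the interval of Mdm4 for 6 against 3 months in KO, 0.83 to 2.25, lies farthest above 0.

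Loss of ClpP at 3 months gave 0 of 10 genes past an adjusted p of 0.05 in limma, where 0.00893% of all genes tested passed. That share is 1 gene, the deleted gene Clpp itself (adjusted p = 0.0087 from limma), so a count of 0 does not set the 10 genes apart. At an unadjusted p under 0.05 there were 3 (Cdkn1a and Mdm2 lower, Ei24 higher in KO), against 6.8% of all genes. The groups did not overlap for 2, Mdm4 (lower in KO) and Ei24 (higher), against 10.2% of all genes. Fitted differences were below 0 for 5 of 10, against 48.7% of all genes, with a median of -0.16 against 0.012 for all genes. That median rested on single libraries: it was -0.45 without KO library 1 or without WT library 3, -0.41 without WT library 2, and -0.54 with all 4 libraries numbered 3 left out. The genes below 0 were Mdm2, Mdm4, Cdkn1a, Ccng1 and Gadd45a.

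At 6 months the count was 0 of 10 in limma, where 0.0268% of all genes passed, or none with the replicate number as a block. At an unadjusted p under 0.05 there were 0 of 10, against 1.22% of all genes, and the groups overlapped for all 10, against 6.8% of all genes without overlap. Fitted differences were above 0 for 7 of 10, against 51.5% of all genes, with a median of 0.27 against 0.014. The median was 0.13 without KO library 3 and 0.052 with the 3 or the 4 libraries left out. Sesn1 (0.77) and Phlda3 (0.64) had the largest differences, and both moved with single KO libraries. Without KO library 1 Sesn1 stood at 0.41 and without KO library 2 at 1.12, while Phlda3 was near 0 without KO library 3. Averaged over both ages, 0 of 10 passed, where 0.0179% of all genes did, and 2 had an unadjusted p under 0.05, against 5.96%. These were Cdkn1a, at -1.73 (SE 0.62, unadjusted p = 0.0166, adjusted p = 0.783), and Ei24, at 0.47 (SE 0.20, unadjusted p = 0.0355, adjusted p = 0.783). With the 3 libraries left out Ei24 was 0.24 (unadjusted p = 0.209) and Cdkn1a -2.09, and the median of the 10 moved from 0.083 to -0.052. The interaction had 0 of 10 past the threshold, where 0.00893% of all genes passed, and 1 of 10 (Mdm2) at an unadjusted p under 0.05, against 2% of all genes.

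Between 6 and 3 months in WT 0 of 10 passed in limma, where 0.00893% of all genes did. At an unadjusted p under 0.05 there were 4 (Gadd45a, Mdm2 and Trp53 lower, Mdm4 higher at 6 months), against 7.44% of all genes. The groups did not overlap for 3 (Trp53, Gadd45a and Mdm4), against 15.7%. The median difference was -0.39 against 0.027 for all genes, and 9 of 10 were below 0, with Mdm4 the exception, against 48.1% of all genes. Among the 9, Ccng1 (-0.035), Phlda3 (-0.11), Sesn1 (-0.25) and Sesn2 (-0.52) changed sign when certain single libraries were left out. The median ran from -0.59 without 3-month WT library 3 to -0.29 without 3-month WT library 1. In KO 0 of 10 passed, where 0.0179% of all genes did, 1 (Mdm4) had an unadjusted p under 0.05, against 6.48%, and the groups did not overlap for 2 (Mdm4 and Gadd45a), against 12.8%. The median in KO was -0.016 against 0.010 for all genes. The comparisons share groups: young WT enters both the genotype comparison at 3 months and the age comparison in WT, and its libraries 1 and 2 enter both estimates for Cdkn1a, Mdm2 and Gadd45a.

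Averaged over both genotypes, a comparison added after the values had been seen, the 6 minus 3 months difference was 1.13 for Mdm4 (SE 0.23, adjusted p = 0.248 from limma) and -1.29 for Gadd45a (SE 0.34, adjusted p = 0.248). Neither passed, and 0 of 10 did, where 0.00893% of all genes passed. The 6 older libraries did not overlap with the 6 young ones for these 2 of the 10 genes, against 1.75% of all genes. At an unadjusted p under 0.05 there were 3, the third being Trp53 at -0.59 (SE 0.22, adjusted p = 0.320), against 12.9% of all genes. With the 3 libraries left out Mdm4 stood at 1.01 and Gadd45a at -1.36, and with the 4 left out at 0.99 (adjusted p = 0.0873) and -1.68 (adjusted p = 0.0730).

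**Figure D4:**
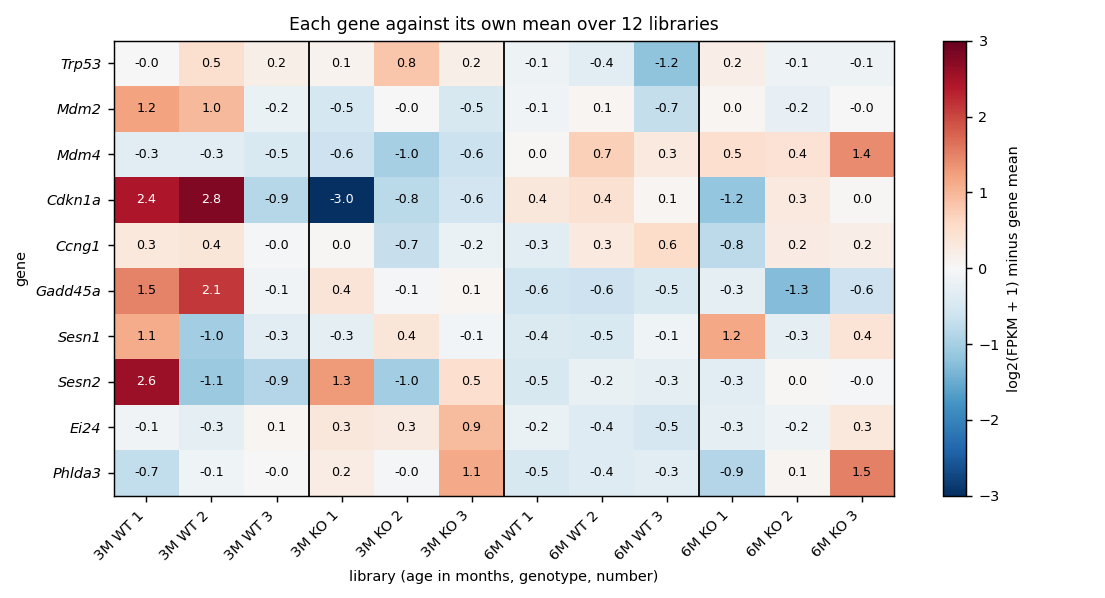
Centred log2(FPKM + 1) of the 10 genes (rows) in the 12 libraries (columns), where each cell gives the distance in log2 units from that gene's own mean. Red in young WT libraries 1 and 2 marks Mdm2, Cdkn1a and Gadd45a, and the Mdm4 row turns from blue in the 6 young libraries to white or red in the 6 older ones.

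By mean FPKM over the 12 libraries the order was Trp53 (68.9), Gadd45a (22.7), Cdkn1a (21.9), Mdm2 (20.3), Ei24 (16), Ccng1 (14.7), Mdm4 (10.04), Sesn1 (8.44), Phlda3 (4.36) and Sesn2 (2.42). Trp53 was above its neighbour Gadd45a in 12 of 12 libraries, but in young WT library 1 it was below Cdkn1a (64.8 against 70.4 FPKM). No other gene was above its neighbour in all 12, and the ranges of all neighbours in the order overlapped. Gadd45a was above Cdkn1a in 5 of 12 libraries and Cdkn1a above Mdm2 in 3 of 12, although the means ran the other way. By the median over the 12 libraries Mdm2 (17.8) was above Gadd45a (15.3) and Cdkn1a (12.8), and young WT libraries 1 and 2 lift the means of the latter pair most. Cdkn1a also had the widest span, 5.79 log2 units between its lowest and highest library.

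The genes most like Cdkn1a across the 12 libraries were Esr1 (Pearson r = 0.93), Pvr (0.92), Rps6ka4 (0.91), Frmd6 (0.91) and Trim36 (0.90), all on log2(FPKM + 1). Esr1 encodes an oestrogen receptor and Pvr the poliovirus receptor, a cell adhesion protein. Without the 2 libraries farthest from the median of Cdkn1a, 3-month KO library 1 and 3-month WT library 2, these r values were 0.82, 0.80, 0.78, 0.83 and 0.91 over 10 libraries. Rps6ka4, Frmd6 and Trim36 were low genes, highest in young WT libraries 1 and 2 (1.25 and 2.42, 2.48 and 1.75, 3.05 and 5.27 FPKM). They passed the filter of 1 FPKM in at least 3 libraries only through these libraries, where Cdkn1a was high. Their likeness to Cdkn1a is thus partly set by the filter and is no independent result. Among the 10 pathway genes Mdm2 was most like Cdkn1a over 12 libraries (0.78), then Gadd45a (0.48) and Ccng1 (0.47), while Sesn2 stood at 0.037 and Trp53 at -0.060. Over the same 10 libraries this order turned, with Sesn2 at 0.82, Mdm2 at 0.69, Ccng1 at 0.61, Gadd45a at 0.47 and Trp53 at -0.32. The order thus rested on the 2 libraries left out. Those 10 still hold young WT library 1, the highest of them for Cdkn1a (70.4 FPKM) and for Sesn2 (13.8 FPKM). The part of that library in these r values was not tested. The genes most like Trp53 were Ucp2 (0.95), Mrps30 (0.95), Dcps (0.94), Eif5a (0.93) and Mipep (0.93). Without the 2 libraries farthest from the median of Trp53, 6-month WT library 3 and 3-month KO library 2, these were 0.84, 0.91, 0.89, 0.72 and 0.71. All genes of a library share its depth, cell content and group, and these differ between libraries, so these values describe the 12 libraries only.

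**Figure D5:**
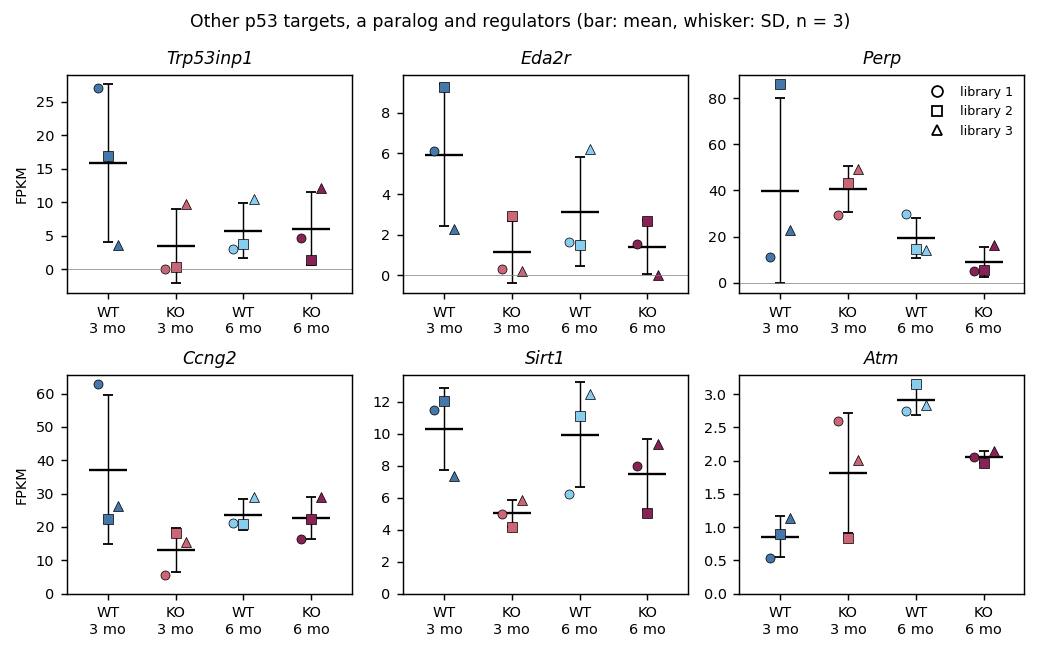
FPKM of 3 further p53 targets (Trp53inp1, Eda2r, Perp), the cyclin G2 gene Ccng2 and the p53 regulators Sirt1 and Atm in the 4 groups, with a point for each library, a bar for the mean and a whisker for the SD (n = 3). Trp53inp1 spans 3.59 to 27.1 FPKM in young WT, and Sirt1 in young KO, at 4.20 to 5.88, lies below young WT.

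Other direct p53 targets were split about evenly between higher and lower. Of 42 listed genes, such as the apoptosis genes Bax, Bbc3 and Fas, 33 were tested, 0 passed in any comparison in limma, and 0 to 2 had an unadjusted p under 0.05, against 1.22% to 12.9% of all genes by comparison. At 3 months 17 were above 0 and 16 below in KO against WT, against 48.7% of all genes below 0. The median was 0.027 against 0.012 for all genes. Trp53inp1, which promotes p53 activity and autophagy, stood at 27.1, 16.8 and 3.59 FPKM in young WT and at 0.0865, 0.346 and 9.79 in young KO (difference -2.40, SE 0.94, adjusted p = 0.711). Eda2r, a death receptor of the tumour necrosis factor family, stood at 6.15, 9.28 and 2.28 in young WT and at 0.274, 2.89 and 0.196 in young KO, and its difference averaged over both ages was -1.29 (SE 0.47, adjusted p = 0.783). Within young WT both were higher in libraries 1 and 2 than in library 3. An older WT library held Eda2r at 6.24 FPKM, above young WT library 1. Perp, a desmosome protein, stood at 29.5, 43.2 and 49.1 in young KO and at 5.27, 5.33 and 16.6 in older KO (difference -2.20, SE 0.64, adjusted p = 0.745). Pltp, a phospholipid transfer protein, reached at most 3.55 FPKM.

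Of 24 p53 regulators 20 were tested, 0 passed in any comparison in limma, and 0 to 5 had an unadjusted p under 0.05. The 5 were from 6 against 3 months over both genotypes, where 12.9% of all genes reached that p. At 3 months 15 of the 20 were below 0 in KO against WT, against 48.7% of all genes, with a median of -0.27 against 0.012 for all genes and 1 at an unadjusted p under 0.05, against 6.8%. That gene was Sirt1, a deacetylase that acts on p53, at 11.5, 12 and 7.34 FPKM in young WT and at 4.99, 4.20 and 5.88 in young KO (difference -0.89, SE 0.34, adjusted p = 0.702). Atm, the kinase that signals DNA breaks to p53, stood at 0.533, 0.901 and 1.14 in young WT and at 2.74, 3.16 and 2.84 in older WT (difference 1.09, SE 0.31, adjusted p = 0.664). In young KO Atm was at 2.60, 0.837 and 2.01, overlapping young WT and below every older WT library. Prkdc, the catalytic subunit of the DNA-dependent protein kinase, and Crebbp, an acetyltransferase that acts on p53, differed by 0.83 (SE 0.30, adjusted p = 0.745) and 0.94 (SE 0.39, adjusted p = 0.745) between 6 and 3 months in KO.

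Of 8 paralogs of the pathway genes 7 were tested, 0 passed in limma, and 0 or 1 had an unadjusted p under 0.05, against 1.22% to 12.9% of all genes by comparison. Ccng2, cyclin G2, stood at 62.8, 22.4 and 26.4 FPKM in young WT and at 5.59, 18.2 and 15.4 in young KO, without overlap (difference -1.43, SE 0.46, adjusted p = 0.664). Cdkn1b, which encodes the kinase inhibitor p27, differed by 1.19 (SE 0.37, adjusted p = 0.745) between 6 and 3 months in KO. Phlda1 differed by -0.88 (SE 0.57) between 6 and 3 months in WT, and Sesn3 by -0.78 (SE 0.60) between KO and WT at 3 months.

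Cell cycle genes that the DREAM complex represses downstream of p21 were all tested, 18 of 18, and 0 passed in limma in any comparison. At an unadjusted p under 0.05 there were 0 in any comparison, against 1.22% to 12.9% of all genes by comparison. In KO against WT 10 were below 0 at 3 months, against 48.7% of all genes, with a median of -0.047 against 0.012. At 6 months 15 were below 0 and 3 above, against 51.5% of all genes above 0. The median there was -0.43 against 0.014. Birc5, a mitotic protein, was lowest in the KO libraries numbered 3, at 170 FPKM in young and 75.2 in older mice, and lay between 284 and 495 elsewhere. Those 2 libraries also held the lowest Mki67 value (2.67, 6-month KO library 3) and both lowest values of Bub1 (16.8 and 3.05), and they are the ones high in theca markers. The part of those markers was not tested. Mybl2, a cell cycle transcription factor, reached at most 9.18 FPKM.

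Stress lists that overlap with p53 signalling were set beside the 10 genes. The list of the integrated stress response, which holds Sesn2, had 14 of 15 tested genes below 0 in KO against WT at 3 months, against 48.7% of all genes, with a median of -0.78 against 0.012. Of the 15, 3 had an unadjusted p under 0.05, against 6.8% of all genes, and 0 passed in limma. Its mean centred log2 level was 1.68, 0.70 and -0.17 in young WT libraries 1, 2 and 3, and that of the 10 p53 pathway genes was 0.80, 0.38 and -0.27. Both list means were thus higher in libraries 1 and 2 than in library 3, but Sesn2 is counted in both lists. The 10 genes were mixed in library 2, with Mdm2, Cdkn1a and Gadd45a at 0.98, 2.79 and 2.12 and Sesn1 and Sesn2 at -1.05 and -1.12. The part of the stress response in the p53 values was not tested. Nupr1, a stress-induced chromatin protein, stood at 3637, 2656 and 1204 FPKM in young WT and at 113, 202 and 190 in young KO (difference -3.79, SE 0.69, adjusted p = 0.397). Eif4ebp1, a translation repressor, differed by -1.16 (SE 0.29, adjusted p = 0.628) there, and between 6 and 3 months in WT Cebpb differed by -1.94 (SE 0.43) and Asns by -2.13 (SE 0.62), both with an adjusted p of 0.664.

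Immediate-early and dissociation genes can rise while tissue is handled. Their mean centred log2 level was -0.79, -0.27 and 0.20 in young WT libraries 1, 2 and 3, and the part of handling in the p53 values was not tested. Of 21 tested, 3 were below 0 in KO against WT at 3 months, against 48.7% of all genes, with a median of 0.79 against 0.012. An unadjusted p under 0.05 was reached by 3 that were higher and 1 that was lower in KO, against 6.8% of all genes, and 0 passed in limma. Klf2 had an interaction of -3.27 (SE 0.83, adjusted p = 1.0), Klf4 a KO minus WT difference at 6 months of -2.13 (SE 0.54, adjusted p = 1.0) and Myc an age difference in WT of -2.16 (SE 0.65, adjusted p = 0.664). Ier3, an early response gene that p53 also regulates, stood at 190, 808 and 176 FPKM in young WT and at 27.0, 67.4 and 153 in young KO, without overlap, and differed by -1.58 (SE 0.48, adjusted p = 0.783) over both ages.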

How the data were processed

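Messenger RNA was measured in 12 cumulus cell libraries, 3 per group, made from 100 cells by Smart-Seq2 and Nextera XT and read as 75 bp pairs, per the labels' protocols. The authors deposited FPKM values. The submitters' processing notes name Cufflinks 1.2.1, SAMtools 0.1.18, TopHat2 2.0.10, Bowtie2 2.1.0, FastQC and cutadapt, and the genome GRCm38/mm10. The gene annotation and any use of strand are not given in the sources used here. No counts were used. For each of 66 pairs of libraries the most common log2 ratio of detected FPKM values under 0.2 in both was taken. A least-squares fit to these ratios put the libraries' relative depth at 0.64 to 1.0. A relative depth does not give the number of reads, so the reads behind values under 1 FPKM are not known and may be few.

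With a pseudocount of 1, log2(FPKM + 1) was fitted by limma 3.58.1 in R 4.3.3 (means of 4 groups over 12 libraries, eBayes with trend) for the 11196 genes at 1 FPKM or more in at least 3 libraries. A fold on this scale understates the change of low genes. Adjusted p-values are by Benjamini and Hochberg over all of these genes, 2-sided, with a threshold of 0.05. The fit was tested on simulated data. The 10 genes, the 6 pathway lists (128 symbols, with Tigar listed as 9630033F20Rik) and the marker lists were chosen with earlier results of these data known. All 10 genes were named, with the 4 tested genes of each list with the smallest unadjusted p in any of 6 comparisons, the 5 genes most like Cdkn1a and Trp53, and the 3 markers per list with the highest mean FPKM, of which those that bear on a result were printed. Other genes in the text were named after their values were seen.

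Whether the libraries' numbers 1 to 3 pair them is not stated by the labels. Libraries of the same number deviated together from their groups in the genotype comparison of older mice (r = 0.16, 0.37 and 0.47) and the age comparison of KO mice (r = 0.11, 0.39 and 0.65). In both, library 1 was not most like its own number, and other-cell markers are shared among libraries numbered 3, so a pairing is uncertain. The main fit used no pairing in any comparison, and the replicate number entered only as a block in an alternative fit. The correlations were -0.019 to 0.21 for genotype at 3 months and 0.030 to 0.28 across age in WT. Coordinates are from GENCODE M21 and promoters from RefSeq, both on GRCm38. The alternatives were pseudocounts of 0.1 and 0.5, other filters, 2 scalings, fits of the compared libraries alone, the replicate number as a block, the removal of 3 libraries high in other-cell markers, of all 4 libraries numbered 3 (added after seeing the data) and of each library in turn. Python 3.11.15 was used for the tables and figures.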

Additional observations from a re-analysis of the deposited data

How the results depend on the processing

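The count of the 10 genes past the threshold was 0 in each comparison under each alternative, with 1 exception: for 6 against 3 months in WT it ran from 0 to 1 over the libraries left out, and was 1 (Gadd45a) without 3-month WT library 3. With the replicate number as a block it was 0 of 10 throughout, and the block changed no call of these genes. Of 1256 alternative values for the 10 genes in all comparisons, 65 had the opposite sign to the main value; the cause was not tested. With library 3 of young KO, older WT and older KO left out these included Sesn2 at 3 months (-0.074) and Mdm2 at 6 months (-0.067), and equal sums without small RNA (0.057) and median-ratio scaling (0.054) turned Ccng1 for age in WT. With all 4 libraries numbered 3 left out, an alternative added after seeing the data, they included Sesn1 (-0.0041) and Sesn2 (-0.61) at 3 months and Mdm2 (-0.067) at 6 months. Leaving out single libraries, KO minus WT at 3 months ran from -0.078 to 0.29 for Trp53, -0.40 to 0.68 for Sesn1 and -0.60 to 1.24 for Sesn2. At 6 months it ran from -0.042 to 0.34 for Mdm2, -0.54 to 0.048 for Ccng1, -0.40 to 0.12 for Gadd45a and -0.0024 to 1.2 for Phlda3. The age difference in WT ran from -0.22 to 0.22 for Ccng1, -0.73 to 0.35 for Sesn1, -1.17 to 0.67 for Sesn2 and -0.33 to 0.029 for Phlda3, and in KO from -0.030 to 0.51 for Ccng1, -1.0 to 0.16 for Sesn2 and -0.84 to 0.36 for Phlda3.

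All genes called were 1 at 3 months (0 with the block, with 6 libraries alone, with a pseudocount of 0.1 and with no filter, and 0 to 10 over libraries left out) and 3 at 6 months (0 with the block). They were 2 averaged over both ages (1 with no filter, 1 to 6 over libraries left out), 1 for the interaction (0 with no filter, 0 to 4), 1 for age in WT (2 with the block and with 6 libraries alone, 1 to 10) and 2 for age in KO (4 with 6 libraries alone). For age over both genotypes they were 1 (2 under pseudocounts of 0.1 and 0.5, the filter at 5 FPKM, equal sums and the removal of 3 libraries, 4 with the block, 1 to 3 over libraries left out). The highest counts, 10, 6, 4 and 10, came without 3-month WT library 3. With all 4 libraries numbered 3 left out the counts were 45 at 3 months, 4 averaged over both ages, 0 for the interaction, 39 for age in WT and 8 for age over both genotypes. Clpp at 3 months had an adjusted p of 0.0564 with a pseudocount of 0.1, 0.0918 with no filter, 0.0655 with 6 libraries alone and 0.398 with the block, and at 6 months 0.0689 with 6 libraries alone and 0.255 with the block. Equal sums moved the median of all genes by 0.11 at 3 months and by -0.14 for the interaction, and the 10 genes' median at 3 months from -0.16 to -0.094. Sesn2 and Phlda3 were not tested at the filter of 5 FPKM. Windows of 5 kb and 2 kb around start sites were not run, since only 300-base promoters were used. With 3 libraries a group and no counts, differences of low genes such as Sesn2 may carry the counting error of few reads.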
